A study of Mus musculus with 6 samples.

Results

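Chromatin bound by Eomes in cultured mouse natural killer (NK) cells was examined here at the 1626 reproducible binding regions that lie 1 to 3 kb from an annotated transcript start. They are 8.08% of the 20126 regions found in at least 2 of 3 experiments (95% Wilson interval 7.71% to 8.46%), and those come from 84399 merged regions in all. A region was formed by merging peak intervals that share at least 1 bp across the 3 deposited peak lists. It took its class, its gene and its distance from the row with the largest pileup, the number of immunoprecipitated fragments at the peak summit. The regions carry the classes 1 to 2 kb (972 regions) or 2 to 3 kb (654 regions). Pileups, peak calls and the distance class therefore chose the regions, and their counts, folds and numbers of experiments are given as descriptions with no test.

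The study asked where Eomes binds in mouse NK cells. Spleens of wild-type C57BL/6 mice, 8 to 12 weeks old, were pooled, and the NK cells purified from them were expanded for 4 days in 100 ng/mL IL-15. Each of 3 separate experiments gave 1 library immunoprecipitated with an antibody to Eomes and 1 input library made without immunoprecipitation. No library of cells without Eomes and no control antibody was analysed here, and because spleens were pooled, an experiment stands for a pool and not for a mouse. The experiments are called 1, 2 and 3 as in the labels.

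Eomes (eomesodermin) is a T-box transcription factor that, with its relative T-bet (encoded by Tbx21), directs the maturation of NK cells and keeps up their cytotoxic program. T-box factors recognise DNA through a short core that reads GGTGTGA on one strand and TCACACC on the other. The DNA near a transcript start includes the core promoter and, on both flanks, elements such as proximal enhancers and alternative promoters.

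The lists held 37456, 33841 and 46329 distinct intervals in experiments 1, 2 and 3. Their background, recovered from each pileup and fold, had a lowest value of 1.82, 1.32 and 2.33 fragments, called the floor here, which stands in for depth. No sequencing depth was given in the sources used here, and the smallest pileup in each list, over all its peaks and also over the regions 1 to 3 kb from a start, was 8, 7 and 9 fragments.

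The sequences available for these regions were RefSeq's windows from 250 bases before to 50 bases after an annotated gene start (GRCm38.p6, the assembly of mm10). Of the 1626 regions, 38 overlapped such a window and 21 had their summit inside one. The 20 highest regions described further on are not among them. The 4 sequences below were chosen after their values were seen: the 3 windows whose regions had the highest fold rank, and the window with the most T-box cores. Capitals mark a T-box core, and each sequence reads 5′ to 3′ on the strand of the gene named for the window.
Region of Cd244, window of the long non-coding RNA gene Gm35200, chr1:171562024-171562323, minus strand: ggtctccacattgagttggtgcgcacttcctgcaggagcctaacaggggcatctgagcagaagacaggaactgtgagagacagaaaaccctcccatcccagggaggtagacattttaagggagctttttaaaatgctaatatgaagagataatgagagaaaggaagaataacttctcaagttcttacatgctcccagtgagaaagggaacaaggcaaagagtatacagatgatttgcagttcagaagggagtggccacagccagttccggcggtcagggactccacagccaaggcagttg
Region of Zfpm1, window of the long non-coding RNA gene Gm39269, chr8:122285125-122285424, minus strand: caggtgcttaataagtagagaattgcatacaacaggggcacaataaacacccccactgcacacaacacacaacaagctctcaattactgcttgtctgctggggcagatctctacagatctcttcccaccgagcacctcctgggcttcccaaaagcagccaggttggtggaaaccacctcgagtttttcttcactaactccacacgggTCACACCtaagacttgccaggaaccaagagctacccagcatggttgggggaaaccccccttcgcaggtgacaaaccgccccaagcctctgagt
Region of Zscan25, the bases before the RefSeq start of Zscan25, chr5:145280221-145280470, plus strand: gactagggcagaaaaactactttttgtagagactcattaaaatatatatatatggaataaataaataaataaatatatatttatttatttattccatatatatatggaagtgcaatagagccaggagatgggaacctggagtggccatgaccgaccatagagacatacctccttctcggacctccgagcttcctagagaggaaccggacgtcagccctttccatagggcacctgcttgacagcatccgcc
Region of a gene with no symbol on chromosome 4, window of the long non-coding RNA gene Gm30318, chr4:43822904-43823203, plus strand: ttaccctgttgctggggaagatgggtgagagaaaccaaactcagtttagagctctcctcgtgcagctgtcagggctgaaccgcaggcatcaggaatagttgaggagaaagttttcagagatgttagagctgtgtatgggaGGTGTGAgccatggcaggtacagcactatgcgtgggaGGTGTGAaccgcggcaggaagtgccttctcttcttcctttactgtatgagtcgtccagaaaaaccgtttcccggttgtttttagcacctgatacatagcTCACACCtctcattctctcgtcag

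The chromosome 4 window held 3 T-box cores, which began at bases 141, 178 and 277 of the printed run. They lay 27, 10 and 109 bp from the summit. The region (chr4:43822901-43823372) was found in all 3 experiments, with a mean fold of 8.71 ± 4.17 (SD, n = 3). The Zfpm1 region, near the gene of the GATA cofactor FOG1, held 1 core at base 208, 52 bp from its summit, and reached a mean fold of 12.7 ± 3.76 (SD, n = 3). The windows printed for Cd244 and Zscan25 held no such core, with mean folds of 12.3 ± 0.659 and 9.79 ± 1.97 (SD, n = 3). A window with no match says only that these letters are not in it.

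Over the 21 windows, 2 held the T-box core (9.52%, 95% Wilson interval 2.65% to 28.9%), beside 3.98% of all 32851 RefSeq windows of the same length. The same 2 windows' cores included one preceded by A on its own strand, which 1.28% of all windows held. The ETS core AGGAAG, searched on both strands, stood in 14 of the 21 (66.7%, interval 45.4% to 82.8%) and in 35.4% of all windows. The RUNX core TGTGGT, also on both strands, stood in 4 of 21 (19.0%) and in 16.8% of all. The AP-1 site TGANTCA, which reads the same on both strands, stood in 2 of 21 (9.52%) and in 7.81% of all. The median GC content was 54.7% in the 21 windows and 52.7% in all windows. These matches describe a small and selected share of the regions, those with a RefSeq gene start close to the summit. By RefSeq the 21 summits thus lie at a gene start, and their distance of 1 to 3 kb holds for the annotation in the lists only. At Zscan25 that start is of the assigned gene itself, 30 bp from the summit, where the list gives 2762 bp.

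The class can also be read from the rows of each experiment, but these include the row that set the class, so their agreement is partly built in. Among the regions present in experiments 1, 2 and 3 (1265, 1199 and 1503 regions), 96.7%, 96.3% and 98.7% had an own row that was also 1 to 3 kb from a start. In 50 regions at least 1 row lay within 1 kb. The distances ran from 1002 to 2998 bp, with a median of 1787 bp, and widths ran from 161 to 1755 bp, with a median of 362.5 bp. The regions carried 1381 gene symbols, and 16 had none. Of these symbols, 1196 had 1 region, 153 had 2, 23 had 3 and 9 had 4 or more. The assigned gene was protein-coding for 1280 regions (78.7%), a long non-coding RNA for 67, a pseudogene for 50, a microRNA for 33 and a small nuclear RNA for 17, by the RefSeq gene table.

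Regions thinned out with distance from the start. Reproducible regions off the start numbered 3526 within 1 kb, 972 from 1 to 2 kb, 654 from 2 to 3 kb, 560 from 3 to 4 kb and 486 from 4 to 5 kb. The median of the regions' mean fold was 4.44, 4.72, 4.70, 4.67 and 4.70 over the same steps. The counts fell at each step to 5 kb, while the fold stayed near 4.7 beyond the first kb. Downstream regions outnumbered upstream ones in both bands.

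**Figure D1:**
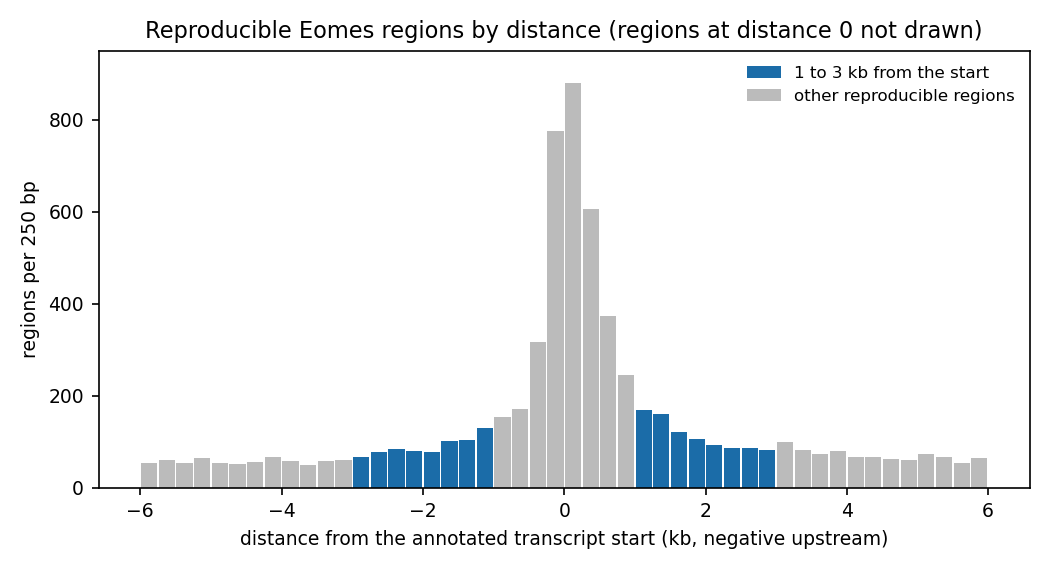
Number of reproducible Eomes regions per 250 bp (y axis) by signed distance in kb from the annotated transcript start (x axis, negative upstream), with the regions 1 to 3 kb away in blue and the others in grey. Regions that overlap a start are not drawn. Counts fall away from the start on both sides, and the blue bars are somewhat higher downstream.

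In all, 719 of the 1626 regions lay upstream of their transcript start (44.2%, 95% Wilson interval 41.8% to 46.6%) and 907 downstream. The share was 44.7%, 44.5% and 44.4% among the regions present in experiments 1, 2 and 3, which share regions with one another. It was 42.5% of the 972 regions at 1 to 2 kb and 46.8% of the 654 at 2 to 3 kb. Among the 7157 regions of this class found in only 1 experiment, it was 42.2%. Beside the start (within 1 kb) the upstream share was 40.3%, in first introns 29.1%, in later introns 36.8% and in distal intergenic regions 60.8%. Downstream here mostly means inside the gene: 694 of 741 downstream regions of protein-coding genes (93.7%) lay within that gene's RefSeq span. Upstream regions were often inside it too, in 262 of 539 cases (48.6%). Distances run to the start of any annotated transcript, including those that begin within a longer gene.

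The median fold enrichment was 4.62 in experiment 1, 5.06 in experiment 2 and 4.80 in experiment 3, a mean of 4.83 ± 0.222 (SD, n = 3 experiments). Single folds ran from 1.35 to 39.4, from 1.43 to 33.8 and from 1.63 to 35.0. The medians of the 3 experiments lay close together, while the median pileups of 15, 13 and 20 fragments were highest in experiment 3. The mean over experiments of the median fold was 5.11 for regions over a start, 4.46 beside it, 5.04 in first introns, 5.01 in later introns and 4.98 in distal intergenic regions. The value for regions 1 to 3 kb away thus lay between those beside the start and those in introns, with no test.

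All 3 experiments found 715 of the regions (44.0%, 95% Wilson interval 41.6% to 46.4%). Of the other 911, 427 were found in experiments 1 and 3, 361 in 2 and 3, and 123 in 1 and 2. The median of the mean fold was 5.89 for the 715 and 4.26 for the 911, and 92 of the 715 reached a mean fold of 10 or more. Across the 715 regions, Spearman's rho of the folds was 0.53 between experiments 1 and 2, 0.62 when 1 was set against 3, and 0.58 when 2 was. These are descriptions across regions, which are not independent and were chosen by being called in each list. Found in all 3 experiments were 66.1% of the regions over a start, 40.3% of those beside it, 49.7% in first introns, 45.3% in later introns and 45.6% in distal intergenic regions.

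The overlap of the lists can also be read 1 experiment at a time, as the share of regions chosen from 2 lists by the same rule that the third list held. These are the counts of shared regions in another form, and the 3 readings reuse the same lists, so no test was made. Of regions 1 to 3 kb from a start, 66.4% of 1076 were found in experiment 1, 62.6% of 1142 in experiment 2 and 85.7% of 860 in experiment 3. Of regions within 1 kb of a start or over it, 72.5%, 78.1% and 92.1% were found, so the share was lower 1 to 3 kb away in each of the 3 readings. The mean difference was -9.32 points, and it was -6.29 points among regions of at most 400 bp. Among those narrow regions the shares were 56.5% against 56.9% in experiment 1, 50.7% against 62.3% in experiment 2 and 80.6% against 87.4% in experiment 3. Regions over and beside a start were pooled here, though 66.1% and 40.3% of them were found in all 3 experiments. Where only peaks with a −log10 q of 5 or more entered, the mean difference over all widths was 2.12 points, with the sign turned.

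The 20 regions with the highest fold rank over the 3 experiments spanned mean folds from 14.9 to 33.7. Gm12344, a pseudogene, led with folds of 39.4, 31.7 and 30.0 at a region 2969 bp upstream (chr11:77111149-77111562). That region lies inside the gene Efcab5. The region of Hemk1, a methyltransferase gene, lies 1854 bp downstream of its start (chr9:107333344-107334809) and had folds of 24.1, 33.8 and 31.6. It also lies 30984 bp from Cish, which encodes an inhibitor of cytokine signalling in NK cells. Gm13387, a long non-coding RNA gene, had folds of 19.8, 27.6 and 30.6 at 2393 bp upstream. Il20rb, a receptor subunit for cytokines of the IL-20 family, had folds of 20.2, 25.2 and 26.7 at 1026 bp downstream, with no reproducible region at its own start. Experiment 1 was highest at Gm12344 and lowest at the other 3 genes.

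Several of the 20 regions lie within 50 kb of a gene that is not the gene assigned but is in the gene lists described further on. Only listed genes were searched, and how often other regions lie near one is not given here. The region of Atp6v1g2, a proton pump subunit gene, lies 2108 bp upstream of it (chr17:35230897-35231552), with folds of 24.4 and 22.3 in experiments 2 and 3 and of 19.998 in experiment 1. That region lies inside the gene Nfkbil1, and the cytokine genes Lta, Tnf and Ltb are 25655, 29226 and 34928 bp away. The region assigned to Adamts14 had folds of 12.3, 15.8 and 18.2 and lies 21928 bp from Prf1, the gene of perforin, which makes pores in target cells. The region assigned to E030018B13Rik had folds of 15.8, 15.6 and 25.8 and lies inside Klf13. Which gene such a region acts on cannot be told from peak positions.

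Other named genes also stood among the 20, some of them with a known role in NK cells or lymphocytes. Id2 encodes an inhibitor of E proteins that innate lymphoid cells and NK cells need. Its region 2094 bp upstream (chr12:25098186-25099102) had folds of 19.1, 20.5 and 16.0. Cxcr3, the receptor for interferon-induced chemokines, had folds of 11.7, 17.2 and 17.6 at 2864 bp upstream (chrX:101737133-101737646). Cass4, a docking protein of adhesion signalling, had folds of 21.3, 16.5 and 16.4. Prkd2, a kinase of the protein kinase D family, had folds of 10.5, 16.6 and 17.8. Mkl1, which encodes a coactivator of serum response factor, had folds of 14.0, 26.1 and 35.0, so its spread of 10.5 (SD, n = 3) was large beside its mean of 25.0. The other 8 regions were assigned to a gene with no symbol on chromosome 10 and to Dhx34, 1810055G02Rik, Gm23224, Gm23664, Ifitm5, Tnk2 and Abca4, and their folds ran from 11.5 to 34.1.

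**Figure D2:**
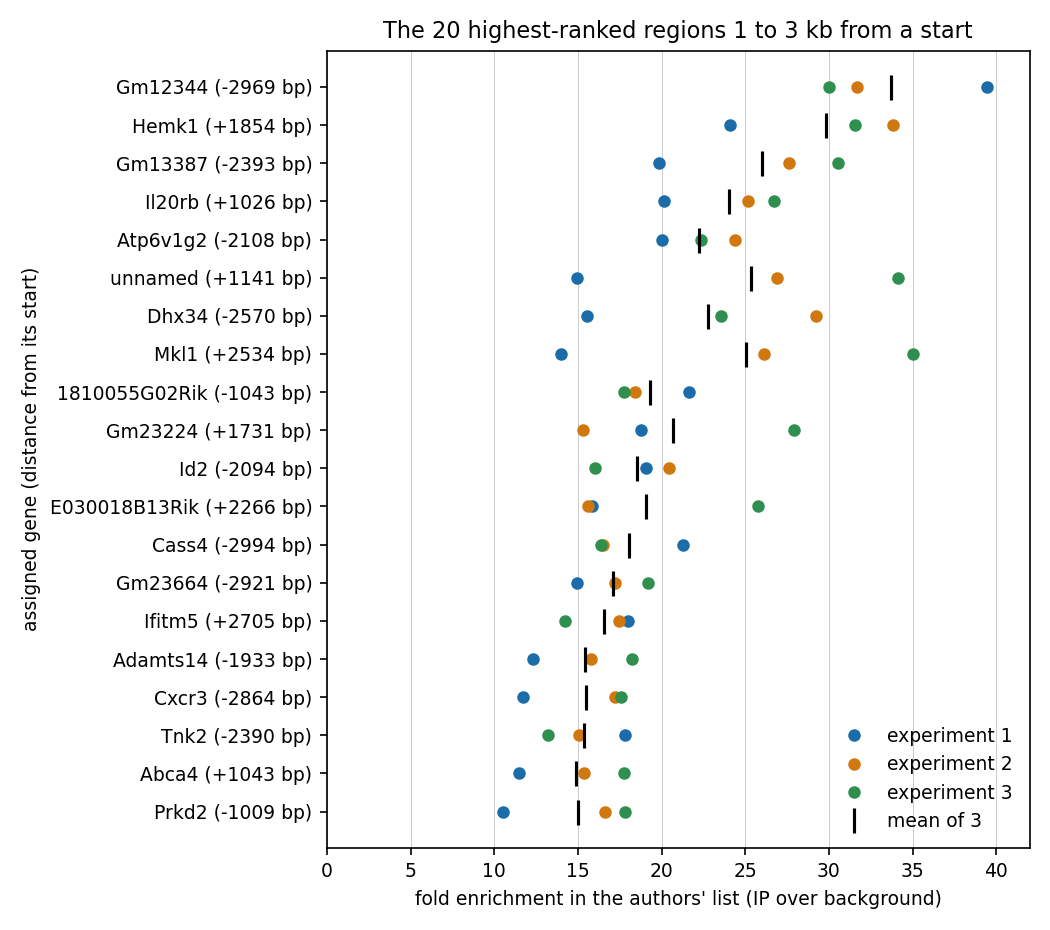
Fold enrichment of immunoprecipitated over background signal (x axis, linear) of the 20 regions with the highest fold rank, one row per assigned gene with its signed distance from the start. Coloured points are the 3 experiments and the black bar is their mean. Gm12344 has the highest mean at 33.7, and Mkl1 spreads from 14.0 to 35.0.

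The regions were next read by gene group, against 14 lists of genes chosen with earlier results of these data known. Of 21900 protein-coding genes in the RefSeq table, 1081 had a region 1 to 3 kb from a start, a background of 4.94%. Of the 9555 genes with any reproducible region, the same 1081 are 11.3%. The median RefSeq length was 24823 bp for genes with a region 1 to 3 kb from a start, 25088 bp for genes with any region and 17146 bp for all. The part of gene length in the shares that follow was not tested. In 12 of the 14 lists the share lay above 4.94%, and no list was tested. The B cell, myeloid and liver and neuronal lists are among them with 1 gene each, at 6.25%, 5.26% and 5%. With all 3 experiments required, or without experiment 3, the count of lists above was 10. Of genes with any region, the share was 37.5% for NK receptors, 30.4% for migration, 29.3% for signalling, 27.8% for cell cycle, 27.7% for transcription factors, 21.7% for cytotoxic, 18.4% for cytokine receptor and 17.6% for cytokine genes, against 11.3%. Among the lists for other cell types it was 22.2% for mesoderm and endoderm, 16.7% for B cell, 16.7% for liver and neuronal and 12.5% for myeloid genes. For T cell and cytosolic ribosomal protein genes it was 0%.

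Among transcription factors of NK and innate lymphoid cells, 13 of 48 genes (27.1%, 95% Wilson interval 16.6% to 41.0%) had such a region, or 27.7% of its 47 genes with any region. They held 20 regions, of which 12 were in all 3 experiments, 11 were upstream and 18 had a region at a start of the same gene. The median of their mean fold was 4.97, beside 4.71 over all 1626 regions. After Id2, the orphan nuclear receptor genes Nr4a3 and Nr4a2 stood highest, and both are induced early upon activation. Nr4a3 had folds of 11.1, 10.3 and 11.0 at 1496 bp upstream (chr4:48042725-48043657). Nr4a2 had folds of 7.52, 7.37 and 8.37 at 1017 bp upstream of a transcript start, inside the gene. The 3 experiments lay close together at both genes.

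Nfil3, a factor that NK cell development needs, had folds of 4.82, 5.65 and 6.10. Smad3, a mediator of TGF-beta signals, had 3 regions, and the highest had folds of 8.03, 4.31 and 7.61. Other regions of the list belonged to Ikzf2, Prdm1, Irf2, Runx1, Gata3, Tbx21 and Runx3, and to further regions of Id2, Nr4a3 and Smad3. The T-bet gene Tbx21, the closest relative of Eomes in these cells, was covered only in experiments 1 and 3, with folds of 4.08 and 3.59 at 2555 bp downstream. At Runx3, a partner of T-box factors in lymphocytes, experiments 2 and 3 gave 4.22 and 3.54.

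Among NK receptors and their adaptors, 9 of 48 genes had a region (18.8%, interval 10.2% to 31.9%), or 37.5% of the 24 genes with any region. Their 9 regions had a median mean fold of 7.65, and 7 were in all 3 experiments. Only 3 of the 9 had a region at a start of the same gene. Cd244, the receptor 2B4, had folds of 12.2, 13.1 and 11.8 at 2515 bp downstream, in the region whose window sequence is printed above. Tyrobp and Hcst, adjacent genes for the signalling adaptors DAP12 and DAP10, had a region each. Tyrobp had folds of 11.1, 11.8 and 9.08 at 2362 bp upstream (chr7:30410951-30411507). Hcst had folds of 8.67, 5.02 and 9.25 at 1548 bp downstream (chr7:30417725-30418306). Both adaptors carry the signals of activating NK receptors.

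Klrb1c, which encodes the mouse NK marker NK1.1, had folds of 12.8, 7.37 and 7.83 at 1399 bp upstream, with no region at its start. Its relative Klrb1a had 6.40, 6.95 and 4.84. Cd247, the zeta chain of several activating receptors, had folds of 7.75, 6.84 and 9.43 at 1200 bp downstream. Klrb and Klrc genes are members of a multigene family, and reads shared with near-identical copies could move these values, which was not tested. The other genes of the list with a region were Cd2, Klrc1 and Fcgr3.

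Cytotoxic and granule genes had a region at 5 of 26 genes (19.2%, interval 8.51% to 37.9%), with a median mean fold of 6.07. Gzmb, the granzyme B gene, had folds of 8.82, 5.32 and 5.01 at 1390 bp downstream. Gzmk had 4.30, 6.37 and 6.07 upstream, and Gzmm had 8.86, 3.35 and 6.00, also upstream of a transcript start but inside the gene. Ctsd, the cathepsin D gene, had 6.75, 7.26 and 4.96. The perforin gene Prf1 was covered in experiments 2 and 3 only, with folds of 4.55 and 6.47 at 2199 bp downstream. The mean folds of the 3 granzyme genes, 5.58 to 6.38, differed by less than the SD over experiments at any of them (1.12 to 2.75).

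Cytokine genes had a region at 3 of 20 (15.0%, interval 5.24% to 36.0%): Tnf, Il10 and Vegfa. Tnf had folds of 5.01, 7.87 and 9.12 at 1230 bp downstream, over a recovered background that averaged 3.13 times the floor. Il10 and Vegfa were each covered in experiments 1 and 3 only. The excess of the cytokine list over all coding genes, 10.1 percentage points, was 1.62 without experiment 1, 2.21 without experiment 3 and 5.11 without regions of high background. Cytokine receptors and their signalling genes had a region at 7 of 44 (15.9%, interval 7.93% to 29.4%). Their excess of 11.0 points was 3.44 without experiment 1, 1.76 without experiment 3 and 0.122 with a −log10 q of 5 or more. Only 2 of the 8 regions of that list were in all 3 experiments, those of Stat6 and Il12rb1. Stat6, which carries IL-4 signals, had folds of 7.49, 22.4 and 25.4 at 1096 bp upstream of a transcript start, inside the gene (chr10:127654923-127655665). Its background in experiment 1 was 5.41 fragments, against 1.32 and 2.62 in experiments 2 and 3, so experiment 1 stood apart there in both values. Il12rb1, a receptor chain for IL-12, had 2.93, 5.02 and 5.58.

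Signalling kinases, phosphatases and ligases had a region at 12 of 47 genes (25.5%, interval 15.3% to 39.5%), with 19 regions, all at genes that also had a region at a start. Their median mean fold was 4.85. Lck, a Src-family kinase, had folds of 13.6, 13.5 and 9.12 at 1458 bp upstream (chr4:129575099-129575674). Spry2, an inhibitor of growth factor signalling, had 3 regions, and the highest had 6.98, 7.51 and 10.1. Pik3cd, the phosphoinositide 3-kinase subunit of leukocytes, had 7.76, 5.41 and 10.2 at its higher region. Ptpn6, the phosphatase SHP-1 that inhibitory NK receptors recruit, had 3 regions, and the highest had 4.30, 6.21 and 7.65. Fyn had 4.69, 4.69 and 8.28 at 2094 bp downstream. Lck was therefore the only gene of this list whose region reached a mean fold of 10.

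Migration and adhesion genes had a region at 7 of 29 (24.1%, interval 12.2% to 42.1%), with a median mean fold of 4.39. Besides Cxcr3, the sphingosine-1-phosphate receptor gene S1pr5, which NK cells use to leave the bone marrow and lymph nodes, had folds of 10.8, 8.18 and 9.91 at 1685 bp upstream, and no region at its start. Selplg, the selectin ligand PSGL-1, had 9.93, 7.67 and 7.52 upstream and 4.93, 3.51 and 4.64 downstream, and the 2 sets do not overlap. S1pr1 had 4.05, 4.52 and 4.69. The excess of this list, 19.2 points, was 11.003 without experiment 3.

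Cell cycle, survival and death genes had a region at 10 of 42 (23.8%, interval 13.5% to 38.5%), with a median mean fold of 6.15. E2f2, an activator of S-phase genes, had 2 regions inside the gene. One had folds of 6.95, 9.04 and 8.22 at 2312 bp upstream of its nearest transcript start, the other 5.67, 9.38 and 13.0 at 2429 bp downstream of its own, and the values overlap. Bid, a pro-apoptotic BCL-2 relative, had 10.1, 6.76 and 7.16. Cdkn1a, the cell cycle inhibitor p21, had 4.06, 10.3 and 12.5 at 1142 bp downstream, lowest in experiment 1. The excess of this list, 18.9 points, was 10.7 without experiment 2.

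The lists for other cell types and housekeeping genes held few regions. No region was found at any of 20 T cell genes or 30 cytosolic ribosomal protein genes, which by the limit for a count of 0 allows shares of up to 15% and 10%, though 9 and 25 of them had a reproducible region elsewhere. One of 16 B cell genes (Cd72), 1 of 19 myeloid genes (Csf1r) and 1 of 20 liver and neuronal genes (Slc17a7) had a region. These are 6.25%, 5.26% and 5% of the genes, close to the 4.94% of all coding genes, and 16.7%, 12.5% and 16.7% of those with any region, above the 11.3% of all such genes. Cd72 had folds of 8.11, 5.90 and 8.21. Of 19 mesoderm and endoderm genes, 2 had a region, Wnt3 and Tbx6. That is 10.5% of the list (interval 2.94% to 31.4%) and 22.2% of its 9 genes with any region, both above the share of all genes. Wnt3 had folds of 12.4, 14.3 and 5.50 at 2483 bp downstream, and Tbx6 was covered in experiments 1 and 3 only. Peak lists hold no expression, so the purity of the NK cells could not be checked here.

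**Figure D3:**
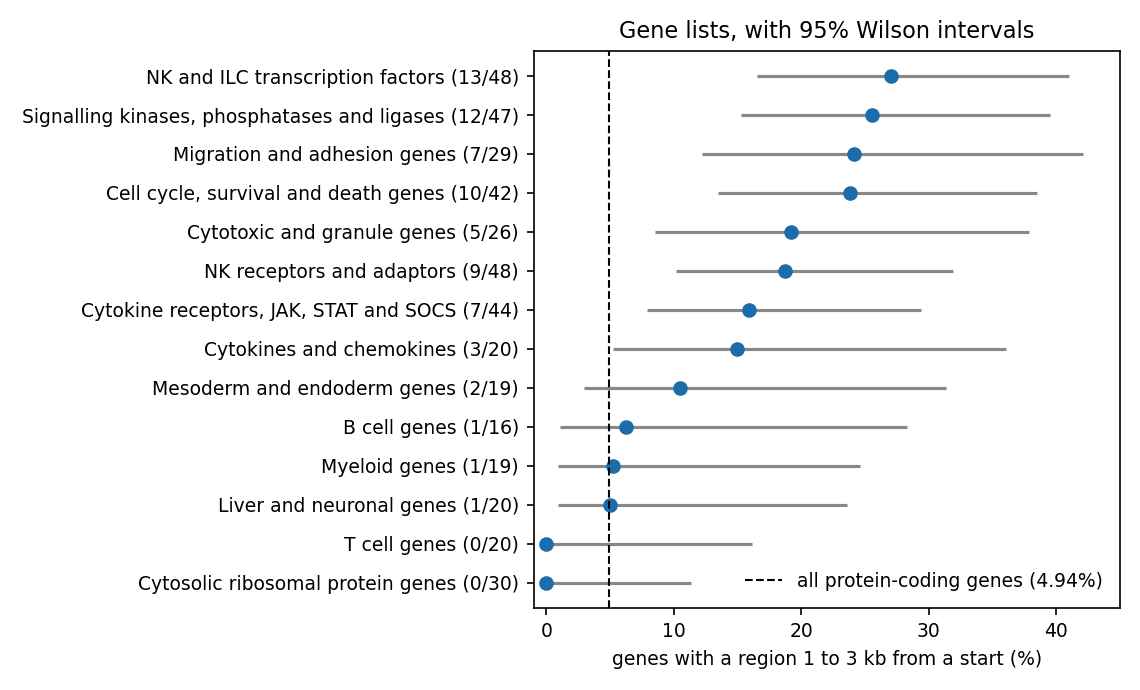
Percent of the genes of each list (y axis, genes with a region over genes in the list) that have a reproducible Eomes region 1 to 3 kb from a start (x axis), as points with 95% Wilson intervals, which cover counting error only. The dashed line is the 4.94% of all protein-coding genes. The lists were chosen with earlier results known, so an interval away from the line is no test, and the excess of the cytokine and cytokine receptor lists is 3.44 points or less without experiment 1 or 3.

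Of the 1626 regions, 922 were assigned to a gene that also had a reproducible region within 1 kb of a start or over it (56.7%, 95% Wilson interval 54.3% to 59.1%). That start is any annotated start of the gene, and need not be the one the distance runs to. The same share was 56.8% for first introns, 50.9% for later introns and 40.2% for distal intergenic regions. Another reproducible region lay within 3 kb of 896 of the regions (55.1%). The share was about the same beside the start, at 54.6%, and was 32.3% in first introns, 27.1% in later introns and 24.9% in distal intergenic sequence. The window of 3 kb around a region 1 to 3 kb from a start reaches that start by construction. The 704 regions with no start region were of about the same height, with a median mean fold of 4.72 against 4.69.

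Where a gene had both kinds of region in all 3 experiments, 283 pairs at 250 genes, neither kind was higher as a rule. The regions of a pair share a gene but not always a transcript start. At Fyn, for example, the start region was chr10:39369386-39370224 and the other chr10:39534981-39535811. The region 1 to 3 kb away was higher in 3 experiments in 67 pairs, in 2 in 68, in 1 in 67 and in none in 81. The median of the mean fold was 5.94 away from the start and 6.12 at it. Single genes went strongly one way. Hemk1 had folds of 4.94, 7.22 and 5.88 at a start of the gene (chr9:107338217-107338610), each under the 24.1 or more of its region 1 to 3 kb from a start. Lck had 5.92, 4.15 and 7.78 at the start, all under the lowest value of 9.12 of its upstream region. Tyrobp had 5.39, 5.23 and 4.81 at the start, and its upstream region was again higher in every experiment. Nr4a3 had 4.56, 8.37 and 5.44 at the start, also under the 10.3 or more found upstream. At Selplg the downstream region was below the start, which had 7.34, 9.38 and 10.8, in 3 of 3 experiments. At Prkd2 the order changed between experiments, with 12.3, 11.4 and 20.4 at the start.

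**Figure D4:**
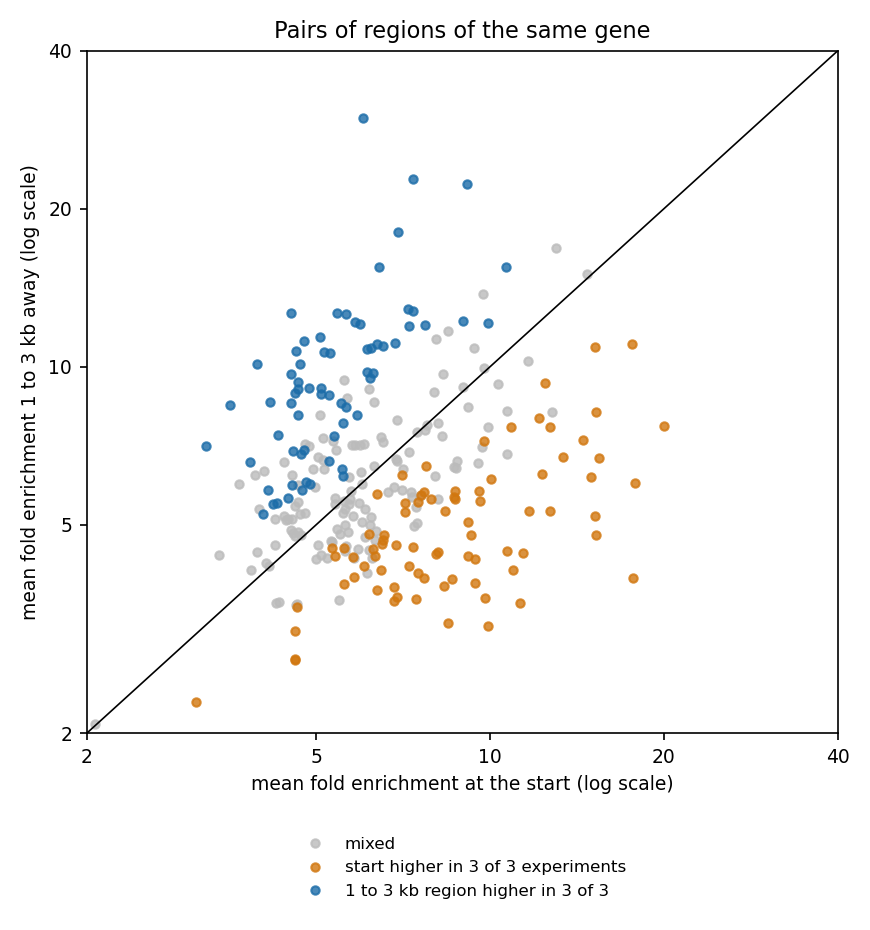
Mean fold enrichment over 3 experiments of a region 1 to 3 kb from a start (y axis, log scale) against that of a region at a start of the same gene (x axis, log scale), for 283 pairs. The start is not always the same transcript start for both regions of a pair. Blue points were higher away from the start in 3 of 3 experiments (67 pairs), orange points higher at the start in 3 of 3 (81 pairs), and grey points mixed. The points lie on both sides of the line of equal fold.

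Some genes held several regions, at 1 transcript start or at several. Mroh2a had 7, the most. Ablim1, Cmklr1, Gm21738, Gse1, Id2, Plec, Sept9 and Synj2 had 4 each. The 4 at Id2 lie on both sides of a single start: at 2094 and 1224 bp upstream and at 2620 and 2901 bp downstream. The other 3 had mean folds of 4.68 to 4.97, against 18.5 ± 2.29 (SD, n = 3) at 2094 bp upstream. At Gse1, a single region 1079 bp upstream stood out in the same way, with folds of 12.7, 10.3 and 13.3. At Plec, which encodes the cytolinker plectin, the region 1801 bp downstream had 13.3, 9.16 and 13.4. Cmklr1, the chemerin receptor gene of NK and myeloid cells, had 4 downstream regions at 2 transcript starts, with mean folds from 3.88 to 6.43.

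The widest region, 1755 bp, lay 2716 bp upstream of Zfp36, which encodes an RNA-binding protein that destabilises cytokine messages (chr7:28381937-28383691). It had folds of 9.57, 16.5 and 10.7. Gm12974 (1684 bp) had 8.75, 7.09 and 13.5, and Mxi1 (1646 bp), a MYC antagonist, had 4.00, 6.46 and 5.91. Wide regions can join several peaks, so a width is not that of 1 site.

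The regions nearest the limits of the class are given for reference, with no test. Just inside 1000 bp lay regions of Cyfip2, Cmklr1 and Sppl2b, at 1002 to 1005 bp, with mean folds of 6.66, 6.43 and 4.45. Just outside it, at 1000 bp, lay those of Zic2, Susd1 and Arrdc2, with 3.70, 16.5 and 4.14. Just inside 3000 bp lay those of Sirt2, Clstn3 and Gm23251, at 2997 to 2998 bp, with 6.55, 4.31 and 11.1. Just outside it lay those of Nfatc1, Col15a1 and Asap1, at 3002 to 3004 bp, with 4.05, 4.08 and 4.26.

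A few regions lay over a high background. In 37 of the 1626 (2.28%, interval 1.66% to 3.12%) the recovered background averaged at least 3 times the floor, against 0.448% of the regions at a start, 1.14% in first introns, 1.24% in later introns and 3.19% in distal intergenic sequence. Their median mean fold was 2.48, and that of the others 4.75. Of the 37, 14 lay in 1 run of 88036 bp on chromosome 1 (chr1:88216653-88304688), assigned to Mroh2a, Gm20528, A730008H23Rik and Trpm8. The span held 42 reproducible regions of any class. In that run the background was 8.62 to 11.3, 5.33 to 8.74 and 8.96 to 14.9 fragments in experiments 1, 2 and 3, and the folds were 2.45 to 3.35, 2.97 to 4.27 and 2.42 to 4.43. The 7 regions of Mroh2a all lie in it, so every region of the gene with the most regions had folds of at most 4.43 over a raised background. The 4 regions of Gm21738 had backgrounds of 43.3 to 134 fragments and folds of 1.35 to 2.26, in experiments 1 and 2 only. Without the 37 regions, 1589 remained and the mean of the median folds was 4.87. The source of this background was not tested.

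**Figure D5:**
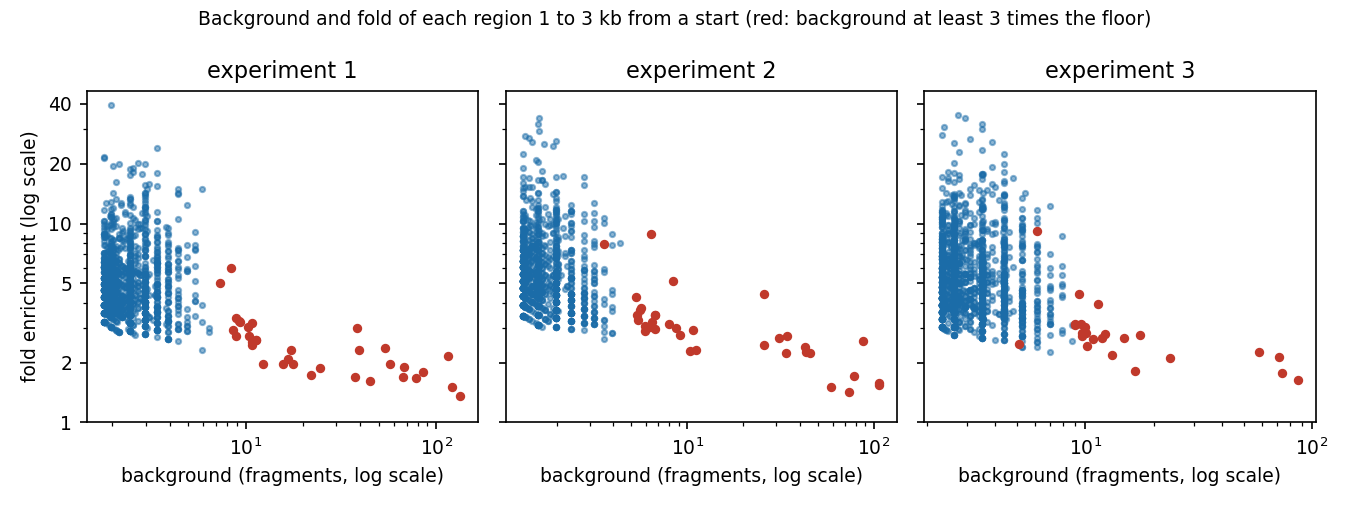
Recovered background in fragments (x axis, log scale) and fold enrichment (y axis, log scale) of each region 1 to 3 kb from a start, one panel per experiment. Red points are the 37 regions whose background averages at least 3 times the floor. Red points sit at the lower right, with folds mostly under 5.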

How the data were processed

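The 3 deposited peak lists, 1 per experiment, were used; peaks were called per experiment, and each list is described as an immunoprecipitated library against its own input. Alignment with Novoalign, annotation with ChIPseeker and the build mm10 are named in the submitters' processing notes. No peak caller or setting was named in those notes, nor in the labels (not given in the sources used here). The authors deposited for each peak a pileup signal (a whole number, read here as fragments at the summit), a fold enrichment ratio, a −log10 p-value and a −log10 q-value, with summit, distance and gene. The fold is the authors' own value and was used to describe and rank regions.

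Where several rows of a list repeated an interval or fell in 1 region, the row with the largest pileup gave the list's value. Background was recovered as (pileup + 1) / fold − 1. Merging, tested on simulated data and checked against bedtools 2.31.1, gave the regions. Genes were matched to the RefSeq table (GRCm38.p6) by symbol or synonym, for 1468 of 1626 regions. No reference genome was used, so the planned tests of T-box share and GC content in summit windows were not run. Named are the 20 regions in all 3 lists with the highest mean fold percentile, up to 6 regions per gene list, the genes with most regions, the 3 nearest either side of each limit and the 3 widest. Because 8 genes tied at 4 regions, all 9 leading genes are named, and a few list genes beyond 6 are named to complete a small count; those, the printed sequences, the pairs discussed and the comparison of shares found in a left-out experiment were chosen after the values were seen. One gene that the rule would name is not reported here. The regions, the gene lists and the lists' members were chosen with earlier results of these data known. Experiments are pools of splenocytes, so SD is over 3 experiments. Wilson intervals cover counting error only. Python 3.11.15, pandas 2.3.3 and scipy 1.17.1 were used.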

Additional observations from a re-analysis of the deposited data

How the results depend on the processing

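No paired analysis was possible because a pair would be an immunoprecipitated library and its input, and the inputs have no values of their own in the 3 lists, where the background of each experiment is already part of the fold. The number of regions fell from 1626 to 662 with a −log10 q of 5 or more and to 715 with all 3 experiments required; leaving out 1 experiment gave 860 to 1142. Their share of reproducible regions, 8.08%, became 7.30% and 6.92% under those settings, and 7.38% to 7.82% with an experiment left out. The upstream share, 44.2%, became 45.02% with a −log10 q of 2 or more, 48.3% with 5 or more and 45.9% with all 3 experiments, and ran from 44.6% to 44.9% with an experiment left out. The share with a start region, 56.7%, became 54.8% with a −log10 q of 2 or more and 35.3% with 5 or more, 54.8% with 100 bp shared, 57.1% with the annotation of the largest −log10 q, 42.5% with all 3 experiments, 43.1% to 50.6% with an experiment left out, and 56.1% without regions of high background, an alternative chosen after seeing the data. In most of these settings fewer start regions enter too. The mean of the median folds, 4.83, became 5.06, 6.75 and 5.83 with a −log10 q of 2 or more, with 5 or more and with all 3 experiments, and ran from 4.89 to 5.31 with an experiment left out. The difference in the share found again, -9.32 points, turned to 2.12 points with a −log10 q of 5 or more, and the cause was not tested. When 1 of the 3 readings was dropped, the mean of the others ran from -10.9 to -6.21 points. No experiment was left out there, since the list of the dropped reading still helped choose regions in the others. The share of the liver and neuronal list minus that of all coding genes, 0.0639 points, turned to -2.33 points with all 3 experiments and ran from -3.38 to 1.41 with an experiment left out (negative without experiments 1 and 3). For the myeloid list 0.327 points turned to -2.15 with a −log10 q of 5 or more, to -2.33 with all 3 experiments, and ran from -3.59 to 1.88 with an experiment left out (negative without experiments 2 and 3). Each rests on 1 gene. The other 12 lists kept their sign, but with an experiment left out the excess of the cytokine list ran from 1.62 to 11.4 points (10.1 with all), of the cytokine receptor list from 1.76 to 10.04 (11.0), of the mesoderm and endoderm list from 1.88 to 6.93 (5.59), of the migration list from 11.003 to 17.1 (19.2) and of the cell cycle list from 10.7 to 15.7 (18.9). With a −log10 q of 5 or more the excess was 7.37 points for the cell cycle list, 8.19 for the migration list and 10.6 for the signalling list (20.6 with all peaks). The cytotoxic and NK receptor lists had 13.2 and 14.5 points there (14.3 and 13.8 with all peaks). With all 3 experiments required the transcription factor list had 14.3 points (22.1 with all regions), the migration list 11.5 and the cell cycle list 7.20. The mesoderm and endoderm list had 2.93 there, the cytokine list 2.67 and the cytokine receptor list 2.22. The signalling, cytotoxic and NK receptor lists had 18.9, 13.1 and 12.3, and the B cell list rose to 3.92 (1.31 with all regions). The planned narrower and wider summit windows and the longer T-box core were not run, since no genome was used. Depth is unknown, and no listed peak has fewer than 8, 7 and 9 fragments in experiments 1, 2 and 3.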
